A study of Mus musculus with 2 samples.

Results

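The genes of p53 signalling and of the mitochondrial and receptor routes of apoptosis were examined in immature mouse oligodendrocytes, in 1 Seh1cKO library and 1 control library. The members are the 35 genes named in a list of p53 with its targets (17 genes), Bcl2 family members (8 genes) and caspases with their cofactors and inhibitors (10 genes), out of 18651 genes listed in either library, matched by gene symbol. All 35 were listed in both libraries, and all passed the floor used here, a mean of at least 1 CPM (reads per 1000000 reads of the library), as did 13758 genes in all. The Seh1cKO culture is labelled mutant and carries a conditional knockout of Seh1l, the gene of Seh1, a protein of the nuclear pore scaffold and of the GATOR amino acid signalling complexes. The control culture is labelled wild type. Both came from the forebrain of C57BL/6 pups aged 4 to 7 days, as precursor cells collected on anti-O4 plates after a pass over anti-GalC plates. Both were expanded with PDGF-AA, CNTF, bFGF and NT3 and then differentiated with the thyroid hormone T3 at 60 nM, with PDGF-AA, bFGF and NT3 withdrawn, until day 2. The Cre driver, the deleted exons and the number of animals were not stated in the labels used here. With 1 library per genotype no test of the genotype was possible, and each difference below is one between 2 libraries.

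p53 is a transcription factor that is kept low by the ubiquitin ligase Mdm2, itself made from a p53 target gene, so that the pair forms a feedback loop. Its targets stop the cell cycle, adjust survival signals or start apoptosis. In the mitochondrial route, BH3-only proteins free or activate the pore formers Bax and Bak, cytochrome c leaves the mitochondrion and binds Apaf1, and this assembly activates caspase-9. In the receptor route, Fas and its relatives recruit caspase-8. Survival members such as Bcl2 hold back the pore formers and IAP proteins hold back caspases. In oligodendrocytes, part of the newly differentiating cells are lost by apoptosis in normal development.

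Depth was similar, with 20599573 expected counts in the Seh1cKO library and 20730124 in the control library. Seh1l itself was at 18.5 CPM in Seh1cKO and 32.1 CPM in control, a ratio of 0.577 (0.508 to 0.656). This and all later intervals are exact 95% Clopper-Pearson intervals of the 2 counts. They cover counting error only and hold no spread between cultures, and reads without molecular identifiers are not independent molecules. The oligodendrocyte lineage markers were present in both, with Olig1 at 873 CPM in Seh1cKO and 864 CPM in control, and all 9 markers of that list had reads. Their summed level was 2628 CPM in Seh1cKO and 4489 CPM in control. Markers of other cells were in both libraries too. The 8 astrocyte markers summed to 5555 CPM in Seh1cKO and 9081 CPM in control, and to 3341 CPM in Seh1cKO and 3881 CPM in control without Gfap; 2 of the 8 were higher in Seh1cKO. The 10 fibroblast and mural markers summed to 769 CPM in Seh1cKO and 307 CPM in control, and all 10 were higher. That list shares Cspg4 with the oligodendrocyte lineage list, and its other 9 markers summed to 621 CPM in Seh1cKO and 208 CPM in control. The 8 epithelial and mesothelial markers summed to 204 CPM in Seh1cKO and 11.1 CPM in control. Of these 6 were higher in Seh1cKO, Epcam was at 7.04 CPM in Seh1cKO and 7.91 CPM in control, and Upk3b had no read in Seh1cKO. The 6 endothelial markers summed to 21.2 CPM in Seh1cKO, against 7.96 CPM in control, where Cldn5 had no read. Cdh5 made up nearly all of that difference, and the other 5 summed to 7.38 CPM in Seh1cKO and 6.95 CPM in control. The 6 microglia markers summed to 16.8 CPM in Seh1cKO, against 7.77 CPM in control. Of these 5 were higher in Seh1cKO, and Aif1 was lower, at 0.194 CPM in Seh1cKO and 0.579 CPM in control. Most of the difference lay in Cd68 (8.30 CPM in Seh1cKO and 3.67 CPM in control) and Tmem119 (4.17 CPM in Seh1cKO and 0.868 CPM in control). The intervals of Cx3cr1 and P2ry12 held 1. The 6 neuron markers summed to 436 CPM in Seh1cKO and 414 CPM in control. Of these 4 were higher in Seh1cKO, among them Stmn2 at 58.7 CPM in Seh1cKO and 28.7 CPM in control. The 2 most abundant were lower, Map2 (270 CPM in Seh1cKO and 279 CPM in control) and Tubb3 (79.6 CPM in Seh1cKO and 91.0 CPM in control). Xist was at 341 CPM in Seh1cKO and 0.868 CPM in control, while the Y-linked Uty had no read in Seh1cKO and was at 10.6 CPM in control, so genotype and sex cannot be told apart.

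Across the list, 32 of 35 genes had a higher level in Seh1cKO, where 60.9% of all measured genes did. The median log2 ratio, log2(CPM + 1) in Seh1cKO minus control, was 0.27 over the members and 0.07 over all measured genes. Most differences were small. A log2 ratio of at least 0.32 (5 reads for every 4) was reached by 14 members, against 21.3% of all genes, and none fell that far the other way, against 8.83%. At least 2-fold higher on the log2(CPM + 1) scale were 3 members, Perp, Casp8 and Birc3, against 2.86% of all genes, and none stood at 0.5 or less of control, against 1.29%. Over all genes the 2-fold counts were 394 higher and 178 lower, and 204 higher and 148 lower on the scale of deposited FPKM. The counting interval lay above 1 for 26 members, against 35.5% of all genes, and below 1 for 2 members, against 20%. With a pseudocount of 5 CPM, with scaling by the median of ratios or with deposited FPKM, Perp alone stayed past 2-fold. Bulk RNA cannot tell more cells of a type from more RNA per cell.

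**Figure D1:**
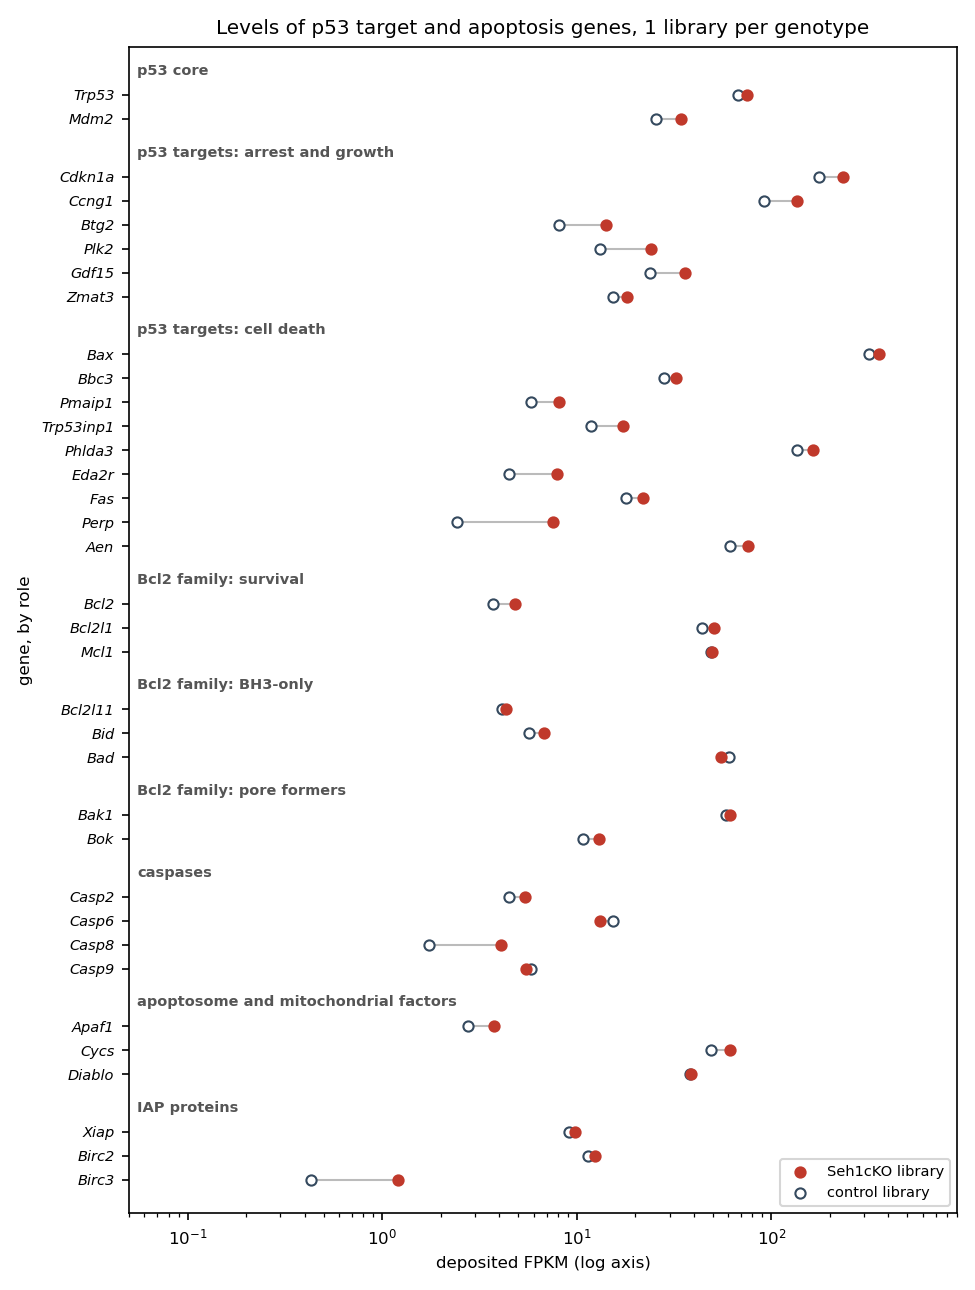
Deposited FPKM (a read count per transcript length and library size, log axis) of the 35 genes, grouped by role; each filled point is the Seh1cKO library and each open point the control library. The 3 lowest genes in control, Birc3, Casp8 and Perp, are those with the widest gaps between libraries, and Bax is the highest gene in both, at 359 FPKM in Seh1cKO and 317 FPKM in control.

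Levels within the p53 list spanned a wide range. On the deposited FPKM scale, which corrects for transcript length, Bax was highest, at 359 FPKM in Seh1cKO and 317 FPKM in control, and stood at the 98.5 and 98.2 percentile of measured genes. Next came Cdkn1a at 235 FPKM in Seh1cKO and 175 FPKM in control, and Phlda3 at 163 FPKM in Seh1cKO and 135 FPKM in control. All 3 were thus abundant transcripts in both cultures. The lowest of the list in control was Perp, at 7.59 FPKM in Seh1cKO and 2.41 FPKM in control. Below the p53 list came Birc3, the lowest of all 35 members, at 1.21 FPKM in Seh1cKO and 0.43 FPKM in control. Trp53 had 2.18 times the FPKM of Mdm2 in Seh1cKO and 2.66 times in control, since Mdm2 was the more different of the pair.

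The promoters of the members were read for matches to the letters of a p53 binding motif. RefSeq promoters of GRCm38.p6 (mm10 is built on the same assembly) cover 250 bases before to 50 bases after a start and were matched for 31 of the 35 genes. They were searched for the p53 half-site consensus, a motif of 10 letters that reads the same on both strands. A half-site was found in a promoter of 6 of 13 matched genes of the p53 list (46.2%), in 1 of 18 matched Bcl2 family, caspase and IAP genes (5.56%) and in 9.55% of all 27025 genes with a promoter in the table. Counted by promoter, 8.36% of 32851 held one. A match is a description of letters and no evidence of binding. The sites are shown here because these genes carry the p53 matches of the list, with each half-site in capitals, 5′ to 3′ on the strand of the gene.
Cdkn1a, chr17:29090729-29090968, plus strand: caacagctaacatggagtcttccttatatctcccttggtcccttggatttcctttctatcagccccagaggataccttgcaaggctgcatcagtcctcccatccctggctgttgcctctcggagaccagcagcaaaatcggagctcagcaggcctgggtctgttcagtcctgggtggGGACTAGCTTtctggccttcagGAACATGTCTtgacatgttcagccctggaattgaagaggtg
Ccng1, chr11:40755441-40755500, minus strand: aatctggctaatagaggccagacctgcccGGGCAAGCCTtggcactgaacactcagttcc
Mdm2, chr10:117710915-117710974, minus strand: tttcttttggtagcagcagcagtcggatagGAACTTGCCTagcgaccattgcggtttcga
Bax, chr7:45467070-45467129, minus strand: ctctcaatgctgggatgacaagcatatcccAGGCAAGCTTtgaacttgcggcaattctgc
Trp53, chr11:69580274-69580303, plus strand: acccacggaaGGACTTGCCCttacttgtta
Aen, chr7:78895927-78895956, plus strand: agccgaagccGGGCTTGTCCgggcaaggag
Birc2, chr9:7836777-7836806, minus strand: cagtcaacccAGGCTAGTCTcgaatttgcg

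The Cdkn1a stretch lies before the more upstream of its 2 listed starts, which are 2790 bases apart. It held a pair of half-sites with a gap of at most 13 bases, as 0.0731% of all promoters did (24 of 32851). They begin 73 and 51 bases before the start. Only exact matches are in capitals. The letters tgacatgttc, right after the half-site at 51 bases, depart from the consensus at their initial t and are not marked. In Ccng1, Mdm2, Bax and Trp53 the single half-site begins 185, 186, 201 and 75 bases before the start. In Aen and Birc2 it begins 10 bases after a start, inside an exon of GENCODE M21; the other stretches contain no annotated exon. The 6 genes of the p53 list with a half-site had log2 ratios of 0.15 to 0.57 with a median of 0.37. The 7 with a promoter and no half-site had 0.20 to 0.86 with a median of 0.58, so the larger median was that of the genes without the letters in this window. The other 4 genes of the list had no promoter in the table.

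Trp53 itself differed little. It was at 134 CPM in Seh1cKO and 121 CPM in control (2764 and 2511 reads), a ratio of 1.11 (1.05 to 1.17). The gene lies on GRCm38 chromosome 11, 69580348 to 69591873. p53 is mainly controlled through the stability of its protein, which RNA does not measure. Mdm2 (chromosome 10, 117688875 to 117710758) was at 107 CPM in Seh1cKO and 78.7 CPM in control, a ratio of 1.36 (1.27 to 1.45). All 17 genes of this list were higher in Seh1cKO with an interval above 1. A log2 ratio of 0.32 was reached by 10 of them, and the list median was 0.44. Of all measured genes 60.9% were higher, 35.5% had an interval above 1 and 21.3% reached 0.32, with a median of 0.07. A counting interval is narrower the more reads a gene has, so abundant genes exclude 1 more readily. The same 2 libraries differed in epithelial and fibroblast markers, whose part in these ratios was not tested.

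The 6 targets that act on the cell cycle and growth had a median log2 ratio of 0.58, against 0.31 for the 9 that act on cell death. Cdkn1a, the cyclin-dependent kinase inhibitor p21 (chromosome 17, 29090979 to 29100722), was at 450 CPM in Seh1cKO and 335 CPM in control, a ratio of 1.34 (1.30 to 1.38). Ccng1, the p53-induced cyclin G1 (chromosome 11, 40748552 to 40755309), was at 479 CPM in Seh1cKO and 322 CPM in control, 1.49-fold higher (1.44 to 1.53). These were the most abundant arrest targets by read count, and their counting intervals were narrow. Plk2, a polo-like kinase of centriole duplication (chromosome 13, 110395044 to 110400844), was at 68.0 CPM in Seh1cKO and 37.1 CPM in control, 1.83-fold higher (1.68 to 2.00). Btg2, an antiproliferative cofactor that is also an immediate early gene (chromosome 1, 134074865 to 134079155), was at 44.1 CPM in Seh1cKO and 25.2 CPM in control, 1.75-fold higher (1.57 to 1.95). Gdf15, a secreted stress factor of the TGF-beta superfamily (chromosome 8, 70629393 to 70632470), was at 38.3 CPM in Seh1cKO and 25.3 CPM in control, 1.52-fold higher (1.36 to 1.70). The smallest ratio of the 6 belonged to Zmat3, a zinc finger RNA-binding protein, at 143 CPM in Seh1cKO and 121 CPM in control (1.18-fold). A log2 ratio of 0.32 was reached by 5 of these 6 genes, against 21.3% of all measured genes. None passed 2-fold upwards, against 2.86%.

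Among the targets that act on cell death, Bax and Bbc3 stood closest to equality. Bax, a pore former of the outer mitochondrial membrane (chromosome 7, 45461695 to 45466903), was at 305 CPM in Seh1cKO and 269 CPM in control, a ratio of 1.13 (1.09 to 1.17). Bbc3, the BH3-only protein PUMA (chromosome 7, 16308398 to 16318334), was at 63.6 CPM in Seh1cKO and 55.3 CPM in control, a ratio of 1.15 (1.06 to 1.246). Pmaip1, the BH3-only protein NOXA, stood further apart, at 21.7 CPM in Seh1cKO and 15.4 CPM in control, 1.41-fold higher (1.21 to 1.63). All 3 were higher in the Seh1cKO library, and 1 of them, Pmaip1, reached a log2 ratio of 0.32. Phlda3, which opposes Akt at the membrane, was at 241 CPM in Seh1cKO and 200 CPM in control (1.21-fold, 1.16 to 1.26). Aen, a nuclease that acts in apoptosis, was at 190 CPM in Seh1cKO and 152 CPM in control (1.245-fold, 1.19 to 1.31). Trp53inp1, a nuclear p53-inducible protein, was at 94.7 CPM in Seh1cKO and 64.9 CPM in control (1.46-fold, 1.36 to 1.56).

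The 3 targets that sit in the cell membrane had ratios from 1.23 to 3.15. Perp, a tetraspan membrane protein of desmosomes that p53 also induces (chromosome 10, 18845071 to 18857073), was at 14.4 CPM in Seh1cKO and 4.58 CPM in control, from 297 and 95 reads, 3.15-fold higher (2.49 to 4.01). It is a gene of epithelia, and the epithelial keratin Krt8 was at 78.7 CPM in Seh1cKO and 0.772 CPM in control, the marker of that list with the highest log2 ratio, while Epcam was not higher. The part of other cells in the Perp reads was not tested. Eda2r, a receptor of the TNF receptor family on chromosome X, was at 35.4 CPM in Seh1cKO and 20.7 CPM in control, 1.71-fold higher (1.51 to 1.93), in libraries that differ in Xist. The death receptor Fas (chromosome 19, 34290647 to 34327775) was at 32.1 CPM in Seh1cKO and 26.1 CPM in control, 1.23-fold higher (1.09 to 1.38).

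**Figure D2:**
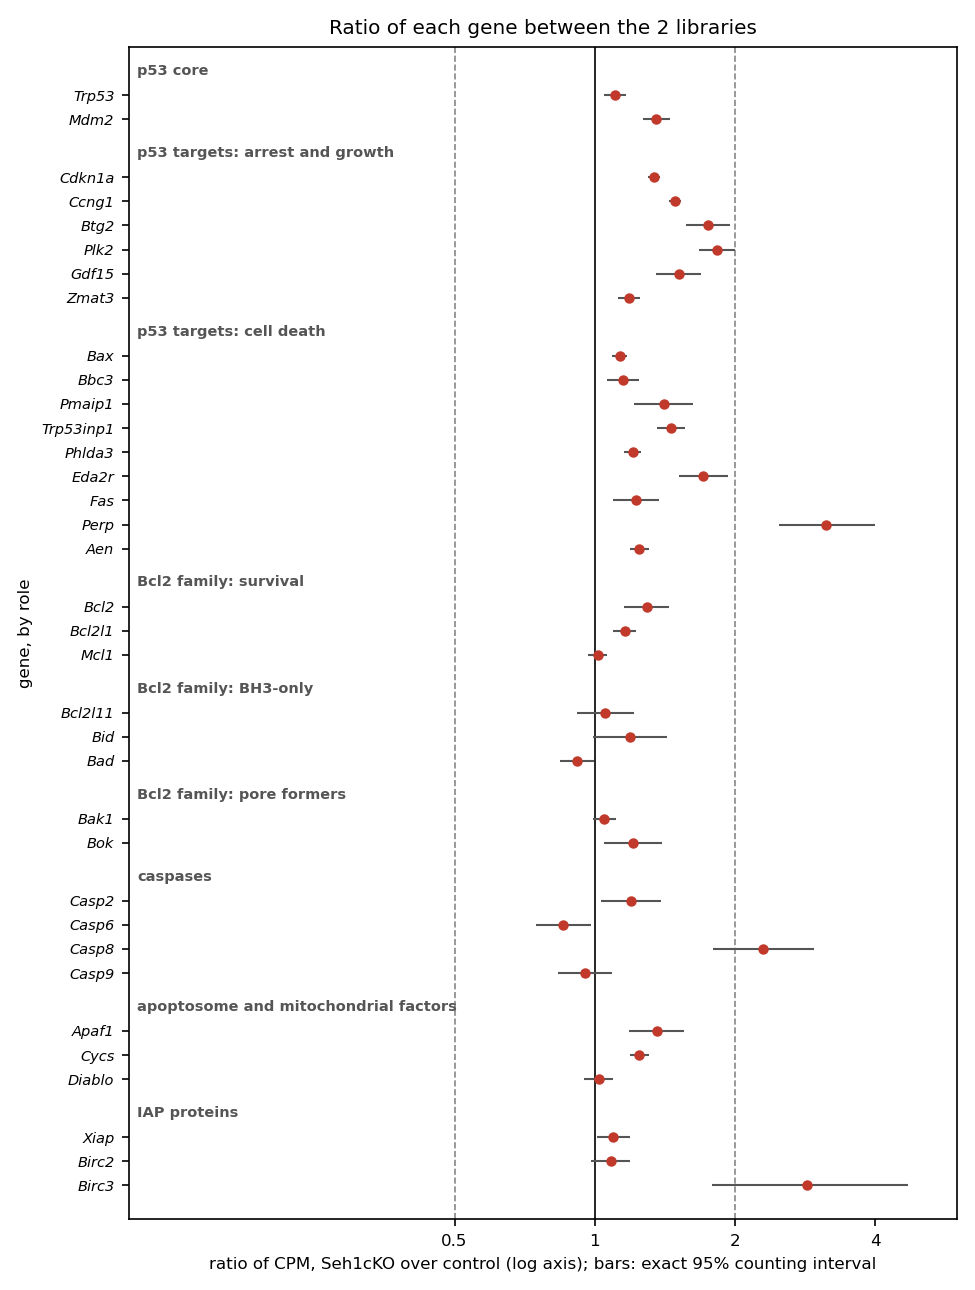
Ratio of CPM, Seh1cKO over control, for each gene by role on a log axis; bars are exact 95% counting intervals, the solid line is equality and the dashed lines are 2-fold. All 17 points of the p53 list lie right of equality, while Bad, Casp6 and Casp9 lie left of it and Perp, Birc3 and Casp8 lie right of the 2-fold line.

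The Bcl2 family stayed close to equality. Of its 8 members outside the p53 list, 7 were higher in Seh1cKO and 1 lower, with a median log2 ratio of 0.14, and 1 reached 0.32. Of all measured genes 60.9% were higher and 21.3% reached 0.32, with a median of 0.07. Bcl2, the founding survival member (chromosome 1, 106538176 to 106714290), was at 34.8 CPM in Seh1cKO and 26.9 CPM in control, 1.29-fold higher (1.16 to 1.45). Bcl2l1, the gene of Bcl-xL (chromosome 2, 152758732 to 152833803), was at 127 CPM in Seh1cKO and 110 CPM in control, a ratio of 1.16 (1.10 to 1.23). Mcl1, a survival member with rapid protein turnover, was at 175 CPM in Seh1cKO and 172 CPM in control, a ratio of 1.02 (0.969 to 1.06) whose interval holds 1, so no difference was detectable at this depth. The sign of Mcl1 changed to -0.05 on the log2 scale with scaling by the median of ratios. By FPKM, Bcl2l1 and Mcl1 were the abundant survival transcripts, at 50.8 and 49.5 FPKM in Seh1cKO and at 44.1 and 48.8 FPKM in control. Bcl2 was far lower per length, at 4.83 FPKM in Seh1cKO and 3.72 FPKM in control.

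None of the BH3-only members outside the p53 list was higher beyond counting error. Bcl2l11, the gene of Bim, was at 20.3 CPM in Seh1cKO and 19.3 CPM in control, a ratio of 1.05 (0.917 to 1.21). Bid, which caspase-8 cleaves to link the receptor route to mitochondria, was at 12.9 CPM in Seh1cKO and 10.8 CPM in control, a ratio of 1.19 (0.993 to 1.43). Bad, which phosphorylation by survival kinases keeps inactive, was at 51.6 CPM in Seh1cKO and 56.4 CPM in control, a ratio of 0.915 (0.841 to 0.995). It was the 1 member of this family that was lower in Seh1cKO. The pore former Bak1 was at 124 CPM in Seh1cKO and 118 CPM in control, a ratio of 1.05 (0.992 to 1.11), and its relative Bok at 20.4 CPM in Seh1cKO and 16.9 CPM in control, a ratio of 1.21 (1.04 to 1.39). Summed over Bax, Bak1 and Bok, the pore formers had 4.13 times the FPKM of the 3 survival genes in Seh1cKO and 4.00 times in control. This sum was chosen after the values were seen.

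The caspases did not share a direction, with 2 higher and 2 lower in Seh1cKO, where 60.9% of all measured genes were higher. Casp8, the initiator of the receptor route (chromosome 1, 58795233 to 58847503), was at 10.4 CPM in Seh1cKO and 4.53 CPM in control, from 215 and 94 reads, 2.30-fold higher (1.80 to 2.97). Casp2, an initiator linked to the PIDD1 platform, was at 19.3 CPM in Seh1cKO and 16.1 CPM in control, a ratio of 1.196 (1.03 to 1.39). The executioner Casp6 (chromosome 3, 129901415 to 129914112) was at 19.3 CPM in Seh1cKO and 22.5 CPM in control, a ratio of 0.855 (0.746 to 0.980). Casp6 thus lay on the other side of equality from Casp8. Casp9, the initiator that Apaf1 activates, was at 21.5 CPM in Seh1cKO and 22.6 CPM in control, a ratio of 0.953 (0.835 to 1.09) whose interval holds 1.

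Downstream of the mitochondrion, Apaf1 and Cycs were higher in Seh1cKO, and the interval of Diablo held 1. Apaf1, the scaffold of the apoptosome (chromosome 10, 90989311 to 91082743), was at 24.9 CPM in Seh1cKO and 18.3 CPM in control, 1.36-fold higher (1.19 to 1.55). Cycs, the gene of somatic cytochrome c (chromosome 6, 50562563 to 50566569), was at 189 CPM in Seh1cKO and 151 CPM in control, 1.247-fold higher (1.19 to 1.31), with counts that were not whole numbers. Diablo, whose protein leaves the mitochondrion and binds IAP proteins, was at 75.2 CPM in Seh1cKO and 73.7 CPM in control, a ratio of 1.02 (0.951 to 1.10). Of the IAP genes themselves, Birc3 (cIAP2, chromosome 9, 7847468 to 7873205) had 71 reads in Seh1cKO and 25 in control, 3.45 and 1.21 CPM, a ratio of 2.86 (1.79 to 4.71). Its neighbour Birc2 (cIAP1, chromosome 9, 7818226 to 7837131) was at 41.6 CPM in Seh1cKO and 38.4 CPM in control, a ratio of 1.08 (0.981 to 1.19). The X-linked Xiap was at 60.5 CPM in Seh1cKO and 55.2 CPM in control, a ratio of 1.10 (1.01 to 1.19). Birc3 and Casp8 each lost the 2-fold mark with a pseudocount of 5 CPM, with scaling by the median of ratios and with deposited FPKM. Birc3 also lost it with scaling by the upper quartile, and lay under a floor of 5 CPM. Whether their reads came from the cells with fibroblast or epithelial markers was not tested.

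**Figure D3:**
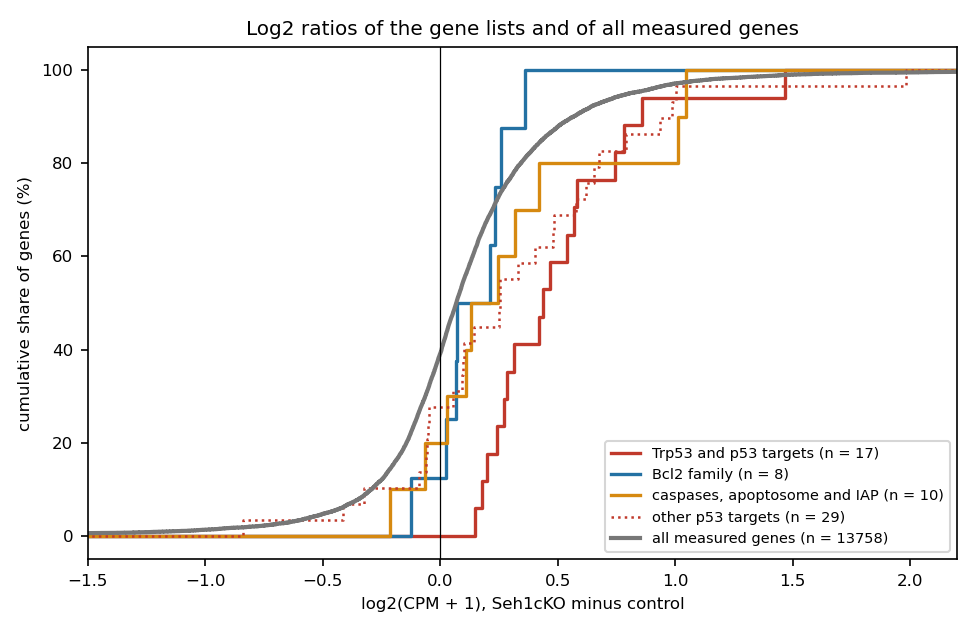
Cumulative share of genes against log2(CPM + 1) in Seh1cKO minus control, for the p53 list (17 genes), the Bcl2 family (8), the caspases, apoptosome and IAP genes (10), 29 other p53 targets and all 13758 measured genes. The curve of the p53 list lies right of the one of all genes through the middle of the range, with medians of 0.44 and 0.07, and the median of the Bcl2 family is 0.14.

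The wider pathway was read from 87 further genes in 5 lists, of which 76 reached the floor; 3 of these (3.95%) passed 2-fold upwards, against 2.86% of all genes, and 1 (1.32%) downwards, against 1.29%. Both shares lie near those of all genes. Of 29 other p53 targets, 21 were higher and 8 lower in Seh1cKO, with a median of 0.25 and 13 at a log2 ratio of at least 0.32. Of all measured genes 60.9% were higher and 21.3% reached 0.32, with a median of 0.07. Thbs1, the matrix protein thrombospondin-1, was at 92.5 CPM in Seh1cKO and 22.7 CPM in control, 4.08-fold higher (3.69 to 4.52). Steap3, a ferrireductase, was at 8.35 CPM in Seh1cKO and 3.67 CPM in control, 2.28-fold higher (1.73 to 3.02). These were the 2 genes of that list past 2-fold, with Steap3 right at the mark (log2 ratio 1.00) and below it with a pseudocount of 5 CPM, on the FPKM scale and under both other scalings. Thbs1 is also a gene of fibroblasts and mural cells, whose 9 markers other than Cspg4 were all higher in the same library. The part of such cells in the Thbs1 reads was not tested. On the lower side stood Cd82, a tetraspanin, at 16.9 CPM in Seh1cKO and 31.1 CPM in control (0.544, 0.476 to 0.621), and Trp53i13 at 26.3 CPM in Seh1cKO and 35.4 CPM in control (0.744, 0.665 to 0.833). A half-site was found in a promoter of 8 of 23 matched genes of this list (34.8%), against 9.55% of all genes with a promoter. None of these 23 genes had a promoter with a pair of half-sites, against 0.074% of all genes.

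The upstream regulators of p53 did not share a direction. Of 17 genes, 8 were higher and 9 lower, with a median of -0.02, where 60.9% of all measured genes were higher. The checkpoint kinase genes Chek1, at 9.17 CPM in Seh1cKO and 5.26 CPM in control (1.74-fold, 1.37 to 2.23), and Chek2, at 16.1 CPM in Seh1cKO and 10.9 CPM in control (1.47-fold, 1.24 to 1.75), stood highest. Trp53bp2, a p53-binding protein, had 38.3 CPM in Seh1cKO and 50.9 CPM in control, a ratio of 0.753 (0.685 to 0.826). Hipk2, a kinase of p53, was at 17.2 CPM in Seh1cKO and 20.98 CPM in control, a ratio of 0.821 (0.712 to 0.947).

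Other apoptosis genes were split as well, where 60.9% of all measured genes were higher. In the further Bcl2 family, 7 of 14 genes reached the floor, 4 higher and 3 lower, with a median of 0.02. It turned negative with scaling by the median of ratios (-0.06), by the upper quartile (-0.03) and at a floor of 5 CPM (-0.09). Bnip3, a hypoxia-inducible mitophagy receptor, was at 72.3 CPM in Seh1cKO and 157 CPM in control, a ratio of 0.459 (0.432 to 0.489). Bmf, a BH3-only gene, was at 6.55 CPM in Seh1cKO and 11.7 CPM in control (0.559, 0.450 to 0.693), while Hrk, another, was at 6.17 CPM in Seh1cKO and 3.81 CPM in control (1.62, 1.21 to 2.17), and Bcl2l12 at 19.03 CPM in Seh1cKO and 16.0 CPM in control (1.19, 1.02 to 1.38). BH3-only genes thus lay on both sides of equality. Of 13 measured further caspase, execution and IAP genes, 5 were higher and 8 lower, with a median of 0.00 and none past 2-fold. Parp1, a DNA repair enzyme that caspases cleave, was at 133 CPM in Seh1cKO and 181 CPM in control (0.733, 0.698 to 0.770). Dffa, the inhibitor of the caspase-activated nuclease, was at 17.7 CPM in Seh1cKO and 23.3 CPM in control (0.762, 0.663 to 0.875). The inflammatory Casp1 was at 9.90 CPM in Seh1cKO and 7.24 CPM in control (1.37, 1.10 to 1.70).

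In the receptor route, 6 of 10 measured genes were higher and 4 lower, with a median of 0.07 (-0.00023 with scaling by the median of ratios). Of all measured genes 60.9% were higher, with a median of 0.07, so this list was near that share. Ripk3, the kinase of necroptosis, had 97 reads in Seh1cKO and 16 in control, 4.71 and 0.772 CPM, 6.10-fold higher (3.57 to 11.1). Traf1, an adapter of TNF receptors, was at 2.43 CPM in Seh1cKO and 1.30 CPM in control (1.86, 1.14 to 3.10). Both counts were low in control, and Ripk3 was under 2-fold with a pseudocount of 5 CPM. Cflar, which holds back caspase-8 at the receptor, was at 52.1 CPM in Seh1cKO and 37.0 CPM in control (1.41, 1.28 to 1.55). By FPKM, Casp8 was at 0.426 of the level of Cflar in Seh1cKO and 0.254 in control. Tradd, a receptor adapter, was lower, at 11.1 CPM in Seh1cKO and 16.7 CPM in control (0.666, 0.561 to 0.789), and Tnfsf10, the gene of the ligand TRAIL, was at 1.07 CPM in Seh1cKO and 1.78 CPM in control (0.598, 0.336 to 1.04).

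**Figure D4:**
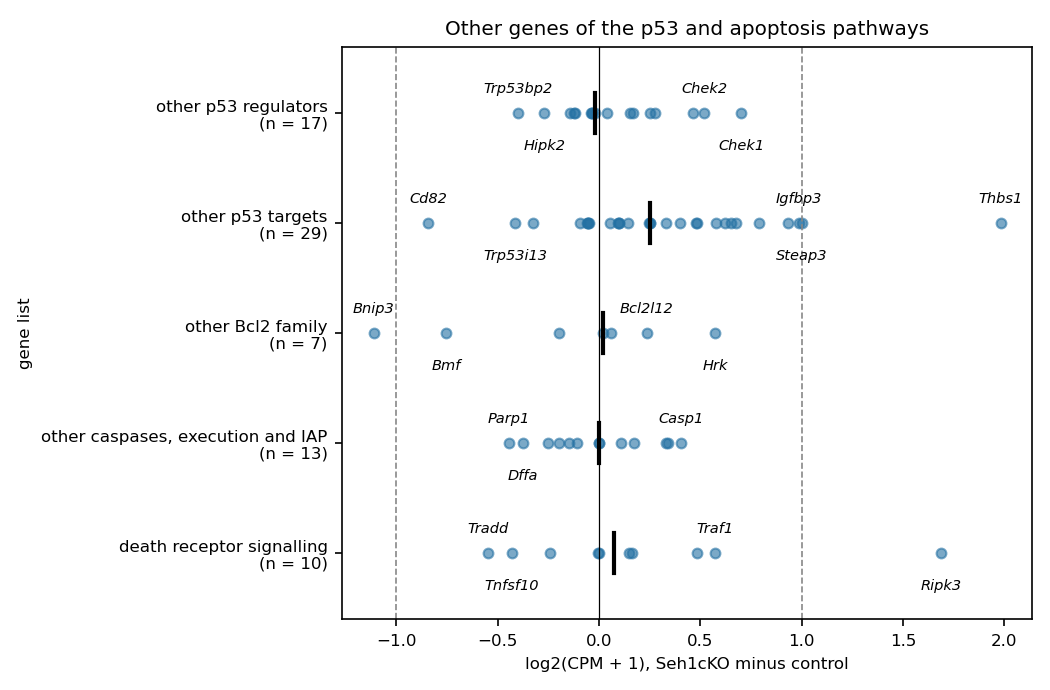
Log2(CPM + 1) in Seh1cKO minus control for the measured genes of 5 further lists of the p53 and apoptosis pathways; each point is a gene, the black bar is the list median and the dashed lines are 2-fold. Thbs1 and Ripk3 stand furthest right and Bnip3 furthest left, and the medians are 0.25 for other p53 targets and between -0.02 and 0.07 for the other lists.

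The authors' deposited table holds 896 genes, 659 higher and 237 lower in Seh1cKO, beside 18651 genes listed in either library. It lists 3 of the 35 members, the same 3 that passed 2-fold here. Both results come from the same 2 libraries, so the overlap is no separate evidence. The authors' deposited table gives a log2 fold change of 1.66 and a false discovery rate of 1.96e-24 for Perp, 1.24 and 1.44e-11 for Casp8, and 1.49 and 1.39e-05 for Birc3. Those rates come from 1 library per group and say nothing of variation between cultures. Of the 87 further pathway genes the authors' deposited table lists Thbs1, Steap3, Ripk3 and Bnip3.

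Expected counts were not whole in the Seh1cKO library, the control library or both for 12 of the 35 members. Among these were Casp8, Birc3, Birc2, Cycs, Bcl2 and Pmaip1. Of all genes listed in a library, 29.5% had counts that were not whole in Seh1cKO and 29.3% in control. The reason was not tested. Exons of 8 members overlap exons of another gene in GENCODE M21, 7 of them a gene on the opposite strand. Among them were Diablo with B3gnt4 (21.5% of its exon bases), Bad with Gpr137 (20.5%) and Bak1 with Ggnbp1, which has 2 annotated entries there (18.2% and 7.35%). The share of all genes with such overlaps was not computed, so the count of members cannot be set against it. The labels used here do not state the strand setting of the counting, so reads from such overlaps cannot be told apart if strand was not used.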

How the data were processed

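RNA sequencing of total RNA was done for 1 Seh1cKO and 1 control culture. The authors deposited, per the file headers, an expected count, an FPKM value and a transcript length for each gene of each library. HTSeq, StringTie and mm10 appear in the submitters' processing notes, which do not give the aligner or the tool behind each column. A further deposited table holds the authors' log2 fold changes with p-values and false discovery rates, from a test that is not given there. Genes missing from a library were set to 0. The columns of both library tables were all mapped.

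Expected counts were rounded, scaled to 1000000 reads (CPM), and compared as log2(CPM + 1), which understates the change of low genes, at a mean of at least 1 CPM. Ratios of single genes use no pseudocount. A count of 0 allows up to 3 reads, 0.146 CPM in Seh1cKO and 0.145 CPM in control. No test, p-value or SD was possible. The scripts (Python 3.11.15, pandas 2.3.3, scipy 1.17.1) were tested on simulated counts.

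The members and lists were chosen with earlier results of these data known. Named were all members, of each further list the genes past 2-fold and the 2 highest and 2 lowest by log2 ratio, of the marker lists the genes at 0 and abundant ones, and Seh1l; not every gene so picked is printed. Genes were matched by symbol and placed by Entrez identifier on GRCm38.p6 (18611 of 18651 identifiers matched). Alternatives were other pseudocounts, scalings, floors, FPKM, and no genes of chromosomes X and Y. RefSeq promoters were searched for the p53 half-site alone and in pairs; the separate search for pairs of its core letters, which the design also listed, is not reported. Protein sequences were not used here.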

Additional observations from a re-analysis of the deposited data

How the results depend on the processing

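Trp53 and its targets were all above a log2 ratio of 0 under each pseudocount, scaling, floor and unit tried, 17 of 17 genes, and 16 of 16 without chromosomes X and Y. Their median ranged from 0.36 with scaling by the median of ratios to 0.44. Of all 35 members, 32 were above 0, 28 with the median of ratios and 30 with the upper quartile. Mcl1, Bcl2l11, Bak1 and Diablo changed sign under the median of ratios, and Mcl1 and Diablo under the upper quartile too. The median over all members was 0.27, and 0.19 with the median of ratios, which by construction lowers each ratio by about the median of all genes. The 3 members past 2-fold became 1 with a pseudocount of 5, the median of ratios or FPKM. Of the further pathway genes, 3 were at least 2-fold higher and 1 with a pseudocount of 5. Over all genes, 394 were at least 2-fold higher, against 637 with a pseudocount of 0.1, 141 with 5, 204 by FPKM and 228 at a floor of 5 CPM, and 178 were at least 2-fold lower, against 116 with a pseudocount of 5. The remaining 134 of 144 list medians and counts stayed within the order-statistic interval of the list or within 1.5 times the count. No replicate could be left out. No paired analysis was possible because each group has 1 library. Among the members, Birc3, Casp8 and Perp had the fewest reads in control, all under 100, as had Ripk3, Traf1, Tnfsf10, Steap3 and Hrk among the further genes named.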

Other observations

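The deposited transcript length of a gene can differ between libraries where several transcripts are listed. All 19 members with 1 listed transcript had the same length in both libraries, and of the 16 with several, 14 differed by at least 1 base and 2, Cdkn1a and Trp53inp1, by less. The differences were largest for Xiap, at 6103 bases in Seh1cKO and 5958 bases in control, and for Eda2r, at 4441 bases in Seh1cKO and 4557 bases in control, both on chromosome X. Casp8 was at 2535 bases in Seh1cKO and 2585 bases in control. Trp53 was at 1791 bases in Seh1cKO and 1789 bases in control, and Cdkn1a at 1917 bases in both after rounding. The labels used here do not say how the authors derived these lengths.

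By FPKM, Bax had 74.4 times the level of Bcl2 in Seh1cKO and 85.3 times in control, and 7.07 times the level of Bcl2l1 in Seh1cKO and 7.19 times in control. These ratios were chosen after the values were seen and have no replicate behind them.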
